A study of Mus musculus with 18 samples.

Results

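The heat shock chaperones and the AP-1 and Egr transcription factors were read in ovaries of LHCTP transgenic mice, which hypersecrete luteinizing hormone, and of their wild-type counterparts. The members were all probe sets of both chip types whose platform annotation gave 1 symbol beginning with Hspa, Hspb, Hspd, Hspe, Hsp90, Hsph, Dnaj, Fos, Jun or Egr, or with Cct and a digit. This gave 50 of 6137 genes named by the annotation, 6 of them on both chips, read by 68 of 13179 probe sets (44 of chip A, 24 of chip B). The chaperones made up 57 probe sets of 42 genes. The Fos, Jun and Egr genes made up 11 probe sets of 8 genes and are described apart, since their messages can rise within minutes of handling a tissue. The rule for the members uses names alone and no measured value, but it was chosen with earlier results of these data known.

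Each of 9 conditions had 1 array of chip A and 1 of chip B, 18 arrays in all. The wild types were CF-1 ovaries at 2 and 5 months and CF-1xC57BL/6 F1 hybrid ovaries at 2 and 5 months. The transgenic ovaries carried LHCTP, a luteinizing hormone transgene that is known to be driven by a pituitary gonadotroph promoter, so that the ovary responds to it from outside. At 2 months the transgenic ovaries of both strains were cystic. By 5 months the CF-1 one was a granulosa cell tumour and the hybrid one a luteoma. A further CF-1 transgenic condition of 5 months had been treated with hCG, a gonadotropin that acts through the luteinizing hormone receptor, and is described as a luteoma. No separate animals of a condition are named, and 1 ovary sample stands for each, so p-values measure the spread between single samples of different conditions. For the chip B tumour array 1 label gives 2 months and the others 5 months, which was followed. Star, which brings cholesterol to the steroid-making enzymes, was at 188 units in the tumour and at 11263 to 22157 units in the other 8 arrays. Ptgfr (217 units), Hsd3b1 (1150) and Cyp11a1 (10175) were also lowest in the tumour. Scarb1 (12525 units there) lay within the 9442 to 26047 units of the other 8. Inha, the inhibin subunit of granulosa cells, was at 10402 to 25616 units in all 9. Other granulosa markers were less even: Amh was lowest in the tumour (415 units), while Inhba (12028) and Inhbb (10279) were highest there. In whole ovaries, fewer cells of a type and less RNA per cell cannot be told apart.

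Chaperones help proteins to fold and keep damaged ones from clumping. HSP70 proteins (Hspa) bind exposed stretches in cycles driven by ATP that J proteins (Dnaj) start and the HSP110 proteins (Hsph1, Hspa4, Hspa4l) reset. HSP90 finishes client proteins such as steroid receptors and kinases, small heat shock proteins (Hspb) hold unfolded ones, and the ring-shaped chaperonins enclose them, Hspd1 with Hspe1 in mitochondria and the Cct subunits in the cytosol. Stress activates heat shock factor 1, which binds repeats of the bases GAA and TTC in promoters. Jun and Fos proteins pair to form AP-1, and Egr1 is a zinc finger factor; in the ovary a surge of luteinizing hormone is known to induce Egr1, AP-1 members and related early genes briefly.

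Promoter sequences are shown for 6 genes because they differ in the element they carry and their levels are described further on. They are the 250 bases before the RefSeq start (mouse assembly GRCm38.p6), 5′ to 3′ along the gene's strand. The table held 53 promoters of 41 of the 50 member genes. The inducible HSP70 gene Hspa1a (chr17:34972157-34972406, minus strand) and the small heat shock protein gene Hspb1 (chr5:135887669-135887918, plus strand) were lower in 4 of 4 transgenic ovaries than in their wild types, and Hsph1 (chr5:149636316-149636565, minus strand) was lower in the 4 untreated ovaries of 5 months than in those of 2 months. Capitals in these mark a heat shock element core, GAANNTTC or TTCNNGAA, both of which read the same on either strand and can overlap each other.
Hspa1a: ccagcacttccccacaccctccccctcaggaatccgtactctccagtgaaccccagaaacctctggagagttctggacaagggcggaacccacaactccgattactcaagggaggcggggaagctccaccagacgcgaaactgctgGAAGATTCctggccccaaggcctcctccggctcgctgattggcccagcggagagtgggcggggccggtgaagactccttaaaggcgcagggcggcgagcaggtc
Hspb1: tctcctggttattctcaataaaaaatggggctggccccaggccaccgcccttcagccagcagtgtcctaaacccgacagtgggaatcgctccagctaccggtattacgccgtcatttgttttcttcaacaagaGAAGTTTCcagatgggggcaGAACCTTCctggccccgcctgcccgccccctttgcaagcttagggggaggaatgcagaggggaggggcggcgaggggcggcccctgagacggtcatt
Hsph1: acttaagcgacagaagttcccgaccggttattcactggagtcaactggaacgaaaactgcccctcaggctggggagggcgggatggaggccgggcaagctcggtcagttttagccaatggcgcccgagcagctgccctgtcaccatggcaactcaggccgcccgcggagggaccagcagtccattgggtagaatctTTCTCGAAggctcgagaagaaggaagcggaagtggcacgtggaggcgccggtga
Hspe1 (chr1:55087898-55088147, plus strand) lies head to head with Hspd1 and holds 3 overlapping cores.
Hspe1: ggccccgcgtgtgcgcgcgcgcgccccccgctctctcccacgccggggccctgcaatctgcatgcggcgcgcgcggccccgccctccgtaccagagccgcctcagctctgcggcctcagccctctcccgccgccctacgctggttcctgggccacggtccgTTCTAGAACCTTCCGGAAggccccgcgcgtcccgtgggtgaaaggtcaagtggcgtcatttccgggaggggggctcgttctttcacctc
In Hspa5 (chr2:34771840-34772089, plus strand), the HSP70 of the endoplasmic reticulum, capitals mark the ER stress response element (CCAAT, any 9 bases, then CCACG, so that it contains a CCAAT box), searched on both strands.
Hspa5: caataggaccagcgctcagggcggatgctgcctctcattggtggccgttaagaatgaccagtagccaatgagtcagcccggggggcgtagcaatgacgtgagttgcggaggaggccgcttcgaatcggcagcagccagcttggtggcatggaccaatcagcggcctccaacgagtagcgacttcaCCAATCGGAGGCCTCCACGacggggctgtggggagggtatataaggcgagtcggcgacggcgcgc
In Jun (chr4:95052223-95052472, minus strand), capitals mark a match to TGACNTCA, the kind of site through which Jun is known to act on its own promoter, searched on both strands.
Jun: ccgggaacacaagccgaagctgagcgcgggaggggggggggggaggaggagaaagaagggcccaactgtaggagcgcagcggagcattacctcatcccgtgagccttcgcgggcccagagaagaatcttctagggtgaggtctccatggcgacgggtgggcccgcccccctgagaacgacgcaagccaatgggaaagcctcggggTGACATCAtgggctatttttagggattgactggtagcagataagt

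Counted back from the start, the cores began at -104 in Hspa1a, at -117 and -97 in Hspb1, at -54 in Hsph1, and at -89, -84 and -79 in Hspe1. The ER stress response element began at -65 in Hspa5 and the Jun site at -45. Not marked in capitals were a heat shock element core, GAANNTTC, at -128 in Jun and an AP-1 site, TGANTCA, at -182 in Hspa5. At least 1 core was found for 10 of the 35 chaperone genes with a promoter in the table and for 12.8% of all 32851 promoters of the same length, a gene with several promoters counting once. At least 2 were found for 4 of these genes and for 1.46% of all promoters. Hspd1 and Hspe1 are among the 4 with the same cores, read from opposite strands. A gene counted when any of its promoters matched, while the shares are of single promoters, so the units differ. The ER stress response element was present in 0.113% of all promoters and TGACNTCA in 7.49%. Neither core was present in the windows of Dnajb1, Hspa4l or Dnajc15. A match is a run of letters and not a measured binding site.

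Values are scaled intensities in units of each chip type, and levels are compared within a probe set. The floor, under which values are treated as not measured, lay at 183.8 units for chip A and 290.7 units for chip B. A value of at least 2 floors, 367.6 and 581.4 units respectively, counted as detected. A probe set was tested when at least 2 of 9 arrays reached it, a rule that 52 member probe sets of 41 genes met, among 6408 tested in all. Of the chaperones, 46 probe sets of 36 genes were tested, and of the Fos, Jun and Egr factors 6 probe sets of 5 genes. Of the 16 that were not, 4 reached the limit on 1 array, namely 1 probe set each of Fos, Dnajb9 and Dnajb6 and the testis-biased HSP70 gene Hspa1l, which read 222.5 to 380.1 units. Both Fosl1 probe sets, 1 of the 2 Fos probe sets, Egr2, 1 of the 2 probe sets each of Dnajc21 and Dnajc1, and both Dnajb3 probe sets were under the floor on all 9 arrays. Tested members ranged in median level from 174.4 to 18154.4 units.

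Trimmed means of the unscaled arrays spanned 907.0 to 1755.8 units (chip A) and 541.9 to 921.0 units (chip B). CF-1 wild type at 5 months, the tumour and the hybrid luteoma shared a profile of control signals: they stood together above or below the other 6 arrays in 4 (chip A) and 5 (chip B) of 15 opposite-strand control probe sets, against at most 2 for any other set of 3 arrays. All 3 are 5-month arrays and transgenic and wild type are both among them. The 3 arrays were all below the other 6 for 12 of 52 members, against 10.1% of all probe sets, and all above for 4, against 8.35%. The 12 were Hsp90aa1 on both chips, Hspa4l, Hspa8 on chip B, Dnajc2, Cct6a, Cct8, Fosl2 and the dimmer probe sets of Dnajb1, Dnajc13, Cct3 and Hspa4; the 4 were Hspb8, Dnaja2, Dnaja3 and the brighter Hspa4 probe set. In a fit with a term for these 3 arrays, added after seeing the data, the term reached an unadjusted p under 0.05 in 3 of 52 members (limma) against 10.5% of all probe sets and an adjusted p under 0.05 in 0 members against 0.0%.

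**Figure D1:**
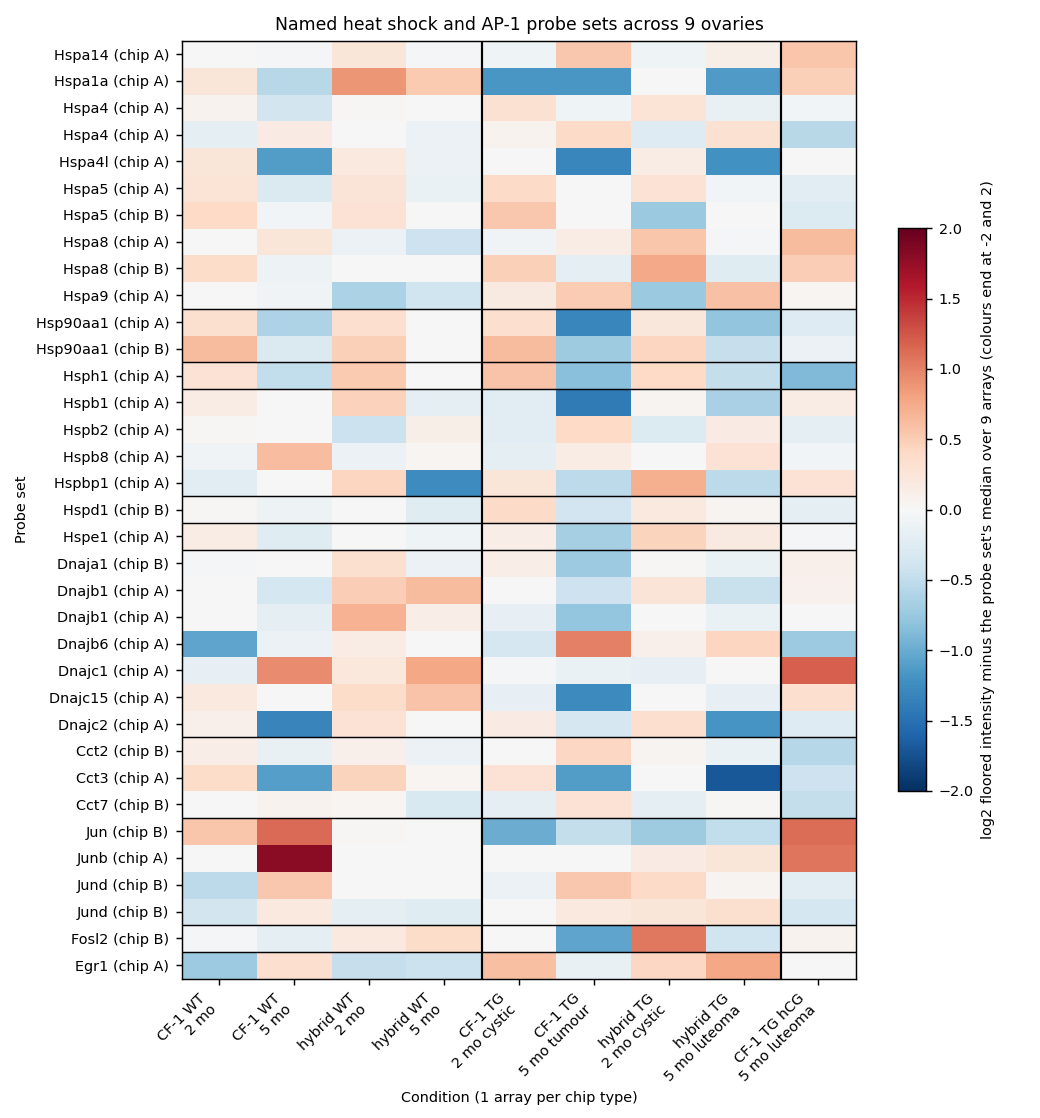
Named and tested heat shock and AP-1 probe sets (rows, by family) in the 9 conditions (columns), coloured by log2 floored intensity minus the probe set's own median over the 9 arrays. Jun is bluer in the 4 untreated transgenic columns than in the 4 wild types (499 to 718 against 995 to 2182 units), and both Hsp90aa1 rows and the Hspa4l row are bluest in the tumour.

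Between transgenic and wild-type ovaries no member passed the threshold of an adjusted p under 0.05 (limma with strain and age as additive terms, 8 untreated arrays, Benjamini-Hochberg over 6408 probe sets), and neither did any other probe set (0.0%). At an unadjusted p under 0.05 there were 7 of 52 members, against 10.0% of all probe sets (642). The chaperones gave 0 higher and 5 lower, against 4.68% and 5.34% of all probe sets, and the Fos, Jun and Egr factors 1 higher and 1 lower. Over both directions the shares were 13.5% of all members and 10.9% of the chaperones, near the 10.0% of all probe sets. The 33.3% of the Fos, Jun and Egr factors rests on 1 probe set each way. The split of the chaperones by direction was not tested, and none of these counts is a result about the members as a group. The median difference was -0.08 on the log2 scale over the chaperones (20 higher and 26 lower), 0.01 over the Fos, Jun and Egr factors and 0.0 over all probe sets. Of the 7, Hspa1a, Hspb1 and Jun stayed at an unadjusted p under 0.05 in each of 17 alternative settings, and the other 4 did not. The 5 chaperone probe sets were Hspa1a, Hspb1, the brighter Dnajb1 probe set, Dnajc15 and Dnajc1.

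Hspa1a, the inducible cytosolic HSP70 whose message is near absent from unstressed cells, had the largest difference among them. In wild-type ovaries it read 490 and 282 units in CF-1 at 2 and 5 months and 763 and 598 units in the hybrid at 2 and 5 months. In transgenic ovaries it read 124 units in the CF-1 cystic ovary, 131 in the tumour, 414 in the hybrid cystic ovary and 189 in the hybrid luteoma, and the hCG-treated ovary read 576 units. The transgenic values were lower in 4 of 4 pairs of the same strain and age, but the groups overlapped, since the hybrid cystic ovary lay above CF-1 wild type at 5 months. The means were 533.2 ± 201 (SD, n = 4) and 214.6 ± 136 units (SD, n = 4), and the fitted log2 difference was -1.14 ± 0.216 (SE; limma unadjusted p = 0.00097, adjusted p = 0.159). The cystic CF-1 ovary and the tumour read under the floor, so their differences were at least 2.67-fold and at least 1.54-fold lower, against 1.84-fold in the hybrid at 2 months and 3.16-fold in the luteoma. With the floor doubled the fitted difference was -0.50 (unadjusted p = 0.0206). The Hspa1a and Hspa1b copies are nearly identical, and the probe set cannot be assigned to one of them alone.

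The constitutive HSP70 proteins, which fold new proteins in unstressed cells, did not follow Hspa1a. Hspa8, the cytosolic form, read 18112, 21425, 16725 and 13619 units on chip A in the wild types, in the order CF-1 at 2 and 5 months and hybrid at 2 and 5 months, which is kept below. In the transgenic ovaries, in the order CF-1 cystic, tumour, hybrid cystic and luteoma, also kept below, it read 17262, 20178, 26602 and 17822 units, and with hCG 28039. The wild-type and transgenic values overlapped, with a log2 difference of 0.23 (limma unadjusted p = 0.338). On chip B the difference was 0.13 (unadjusted p = 0.529).

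Hspa5 on chip A read 14647, 9914, 14419 and 11037 units in the wild types and 15803, 12069, 14735 and 11659 in the transgenic ovaries. On this chip the 4 untreated arrays of 5 months lay below the 4 of 2 months, with a genotype difference of 0.13 (limma unadjusted p = 0.41) and an age difference of -0.42 (unadjusted p = 0.0217, adjusted p = 0.201). Chip B did not show this order: the age difference there was -0.13 (unadjusted p = 0.634) and the genotype difference -0.21 (unadjusted p = 0.454), and the hybrid cystic ovary read 6578 units there against 13526 in its wild type, a log2 difference of -1.04 where chip A gave 0.03. Hspa9, the mitochondrial HSP70, read 2619, 2484, 1681 and 1996 units in the wild types and 2957, 3719, 1564 and 3933 in the transgenic ovaries. Its difference was 0.41 (unadjusted p = 0.13), and the tumour and the luteoma were its highest arrays. Hspa14, a ribosome-associated HSP70, differed by 0.08, and Hspa2, the HSP70 of male germ cells, was not tested, with values of -65.1 to 374.9 units.

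The HSP110 group assists HSP70 by exchanging its nucleotide. Hsph1 read 4268, 2481, 5044 and 3495 units in the wild types and 5210, 1956, 4604 and 2500 in the transgenic ovaries, with 1904 in the hCG-treated one. The 4 untreated arrays of 5 months all lay below the 4 of 2 months in both genotypes, and the genotype difference was -0.17 (limma unadjusted p = 0.405). Hspa4l, a dimmer relative, read 538, 209, 521 and 418 units against 454, a value under the floor in the tumour, 502 and 196, with a genotype difference of -0.40 (unadjusted p = 0.12). The 2 probe sets of Hspa4 both gave 0.16, but the brighter was highest in the tumour (5819 units) and the dimmer was highest in the CF-1 cystic ovary (2904 units).

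Hsp90aa1, the stress-responsive cytosolic HSP90, was lowest of all 9 arrays in the tumour on both chips. On chip A it read 12300, 6411, 12484 and 9861 units in the wild types, 12408, 4002, 11556 and 5706 in the transgenic ovaries and 8224 with hCG. On chip B the values were 9215, 4856, 8233 and 5928 units, then 9214, 3627, 7980 and 4306, then 5473. The order of the arrays was alike on the 2 chips, with the 2-month ovaries highest and the tumour and the luteoma lowest. The genotype differences were -0.39 on chip A (limma unadjusted p = 0.115) and -0.23 on chip B (unadjusted p = 0.248). The names of most member probe sets described here, those of Hsp90aa1, Hspa5, Hspa8, Hspe1 and Jund among them, carry a suffix that the maker gives to sets which can match related sequences.

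Hspb1 (HSP27), which guards actin and holds unfolded proteins, read 6594, 5945, 8213 and 5270 units in the wild types and 5145, 2224, 6162 and 3790 in the transgenic ovaries. The hCG-treated ovary read 6621 units, within the wild-type range. Hspb1 was lower in 4 of 4 pairs, most in the tumour (log2 difference -1.42), although the groups overlapped. The means were 6505.7 ± 1260 and 4330.2 ± 1708 units (SD, n = 4 each), and the fitted difference was -0.67 ± 0.212 (SE; limma unadjusted p = 0.0155, adjusted p = 0.413). Hspb2 and Hspb8, small heat shock proteins of muscle and of autophagy, differed by 0.09 and -0.06. Hspbp1, whose symbol shares the letters but which encodes a nucleotide exchange factor of HSP70, differed by 0.24, with values of 219 to 857 units over the 9 arrays.

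**Figure D2:**
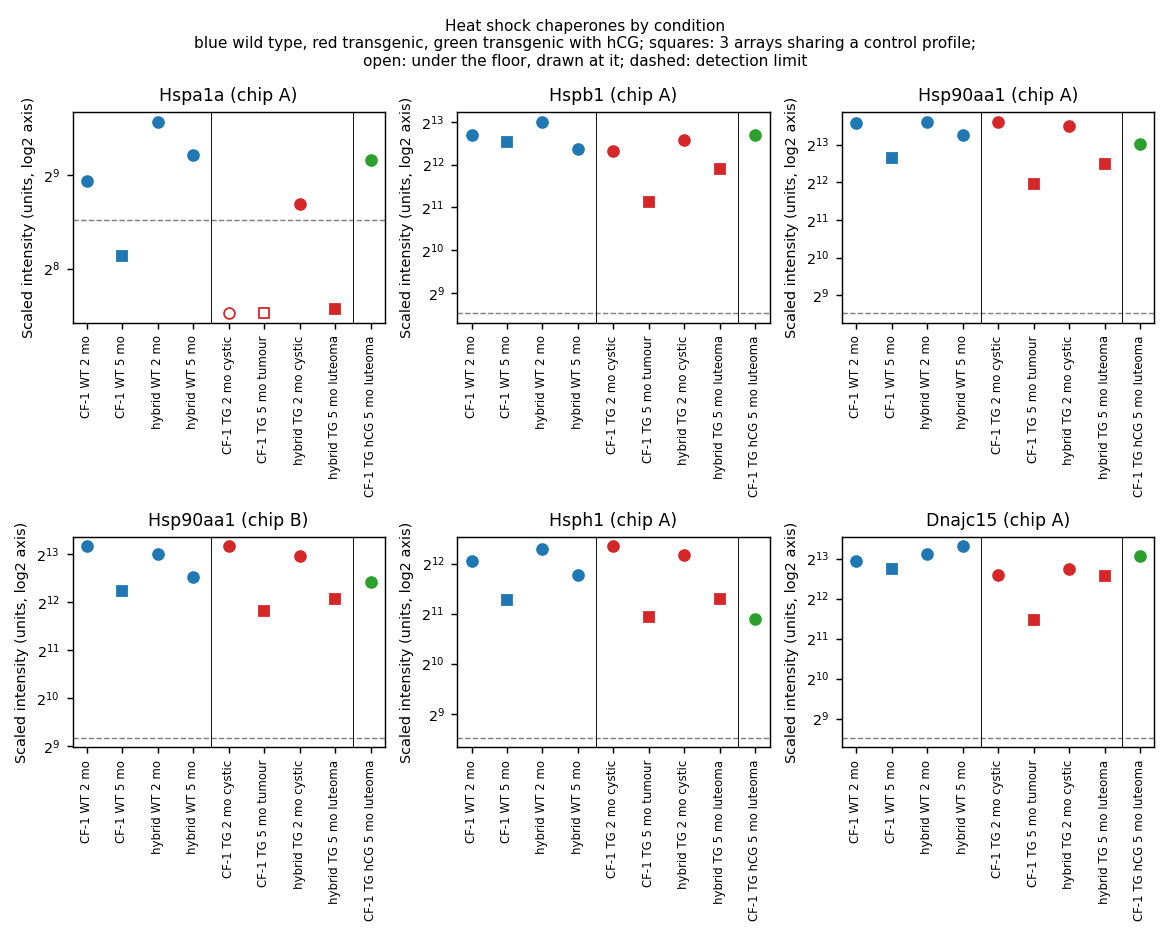
Scaled intensity (units, log2 axis) of 5 chaperone genes in the 9 conditions, Hsp90aa1 on both chips; 1 point is 1 array, with no error bar because each condition had 1 array, and open symbols are values under the floor drawn at it. Hspa1a and Hspb1 are lower in each of the 4 untreated transgenic ovaries than in the wild type of its strain and age, while the hCG-treated ovary (576 and 6621 units) lies above its wild type; Hsp90aa1 and Hsph1 separate by age, and Dnajc15 is lowest in the tumour (2842 units).

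The chaperonins showed no difference by genotype past either threshold. Hspd1 (HSP60) read 14760, 13496, 14498 and 12246 units in the wild types and 18830, 11087, 16528 and 14998 in the transgenic ovaries, a difference of 0.14. Its lid, Hspe1 (HSP10), read 9918, 7589, 8941 and 8382 units and then 9805, 5629, 12158 and 10117, a difference of 0.07. The 2 genes, whose starts share the promoter shown, were both lowest of 9 arrays in the tumour and higher than wild type in the hybrid transgenic ovaries. Of the 10 Cct probe sets 9 were tested, with a median difference of -0.12. Cct2 and Cct7, subunits of the ring that folds actin and tubulin, were highest in the tumour (12330 and 8908 units) and lowest with hCG (6243 and 5247 units), with genotype differences of 0.10 and 0.04. The dimmer Cct3 probe set read 1589, 574, 1671 and 1272 units and then 1512, 569, 1233 and 381, so the luteoma was 3.34-fold lower than its wild type (log2 difference -1.74). The brighter Cct3 probe set gave -0.54 for the same pair, so the 2 disagree on the size.

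Among the J proteins, which deliver clients to HSP70, Dnajc15 stood out in the tumour. Dnajc15, a J protein of the inner mitochondrial membrane, read 7835, 6849, 8807 and 10154 units in the wild types, 6150, 2842, 6865 and 6107 in the transgenic ovaries and 8644 with hCG. The tumour was at least 2-fold below every other array, the only member of which this was true, against 1.62% of all probe sets, and 0 members were at least 2-fold above every other array there, against 0.968%. The genotype difference was -0.68 ± 0.232 (SE; limma unadjusted p = 0.0211, adjusted p = 0.444), and Dnajc15 was lower in 4 of 4 pairs. Dnajb1 (HSP40), the usual partner of Hspa1a, read 2130, 1853, 3433 and 2321 units on its brighter probe set in the wild types and 1897, 1240, 2114 and 1938 in the transgenic ovaries, lower in 4 of 4 pairs with overlapping groups. Its fitted difference was -0.43 ± 0.161 (SE; unadjusted p = 0.0314, adjusted p = 0.468), and its dimmer probe set gave -0.35 (unadjusted p = 0.148).

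Dnajc1, a J protein of the endoplasmic reticulum membrane, was dim, at 161 to 396 units in the wild types and 146 to 206 in the untreated transgenic ovaries, with a difference of -0.52 (limma unadjusted p = 0.0464, adjusted p = 0.49). With the floor doubled this became -0.03 (unadjusted p = 0.818). It reached the detection limit on 2 arrays only, CF-1 wild type at 5 months and the hCG-treated ovary, and its second probe set was under the floor throughout. Dnajb6, which keeps aggregation-prone proteins soluble, was highest in the tumour on the dimmer of its 2 tested probe sets, at 2285 units against 549 to 1523 in the other 8, and the genotype difference was 0.56 (unadjusted p = 0.0902). The brighter probe set disagreed: it read 4288 units in the tumour and 3364 to 4648 in the other 8, and gave -0.10 (unadjusted p = 0.554). Dnaja1, a cytosolic J protein, differed by -0.22 and Dnajc2, which works at the ribosome, by -0.02.

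Jun, the AP-1 subunit that c-Jun N-terminal kinases phosphorylate, was the only tested member whose groups did not overlap by genotype. It read 1465, 2182, 1014 and 995 units in the wild types and 499, 718, 611 and 706 in the transgenic ovaries, while the hCG-treated ovary read 2160 units. All 4 untreated transgenic ovaries lay below all 4 wild types, as was the case for 2.29% of all probe sets, and 0 members had the opposite order, against 1.86%. The means were 1413.7 ± 556 and 633.3 ± 102 units (SD, n = 4 each), and the fitted difference was -1.10 ± 0.245 (SE; limma unadjusted p = 0.0023, adjusted p = 0.23). Jun was lower by 2.94-fold in the CF-1 cystic ovary, 3.04-fold in the tumour, 1.66-fold in the hybrid cystic ovary and 1.41-fold in the luteoma. In the separate fit of the interaction of genotype with strain, Jun was the 1 member at an unadjusted p under 0.05 (unadjusted p = 0.0403, adjusted p = 0.854), against 5.43% of all probe sets, and 0 members passed the adjusted threshold, against 0.0%. In that of genotype with age the 1 member was Fosl2 (unadjusted p = 0.017, adjusted p = 1.0), against 2.76%, and again 0 passed, against 0.0%.

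The other AP-1 members did not share the pattern of Jun. Jund, which is expressed in resting cells, read 6144, 9125, 6940 and 6712 units on its brighter probe set in the wild types and 7931, 9054, 9354 and 9893 in the transgenic ovaries, a difference of 0.34 (limma unadjusted p = 0.0984), and its dimmer probe set gave 0.21. Junb was above the detection limit in CF-1 wild type at 5 months (642 units) and with hCG (384 units) and was at or below 218 units in the other 7 arrays, 5 of them under the floor. Fosl2, a Fos relative, read 597, 526, 696 and 778 units in the wild types and 605, 79.7, 1257 and 457 in the transgenic ovaries, the tumour being under the floor. Of the 2 Fos probe sets, 1 reached the detection limit on 1 array, the tumour, at 947 units, and read 65 to 347 units in the other 8. The second Fos probe set read 24.1 units in the tumour and was under the floor on all 9 arrays. Fos was not tested for that reason.

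Egr1, which is induced by luteinizing hormone in follicles, was the 1 member higher in transgenic ovaries at an unadjusted p under 0.05. It read 1588, 3338, 1922 and 1955 units in the wild types and 4008, 2385, 3525 and 4515 in the transgenic ovaries, with 2635 units after hCG. It was higher in 3 of 4 pairs and lower in the tumour pair (log2 difference -0.48), where CF-1 wild type at 5 months was the highest wild type. The means were 2200.6 ± 776 and 3608.1 ± 910 units (SD, n = 4 each), and the fitted difference was 0.73 ± 0.301 (SE; limma unadjusted p = 0.0435, adjusted p = 0.489). The labels used here give no time between death and freezing, and the part of handling in the Fos, Jun and Egr values was not tested.

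**Figure D3:**
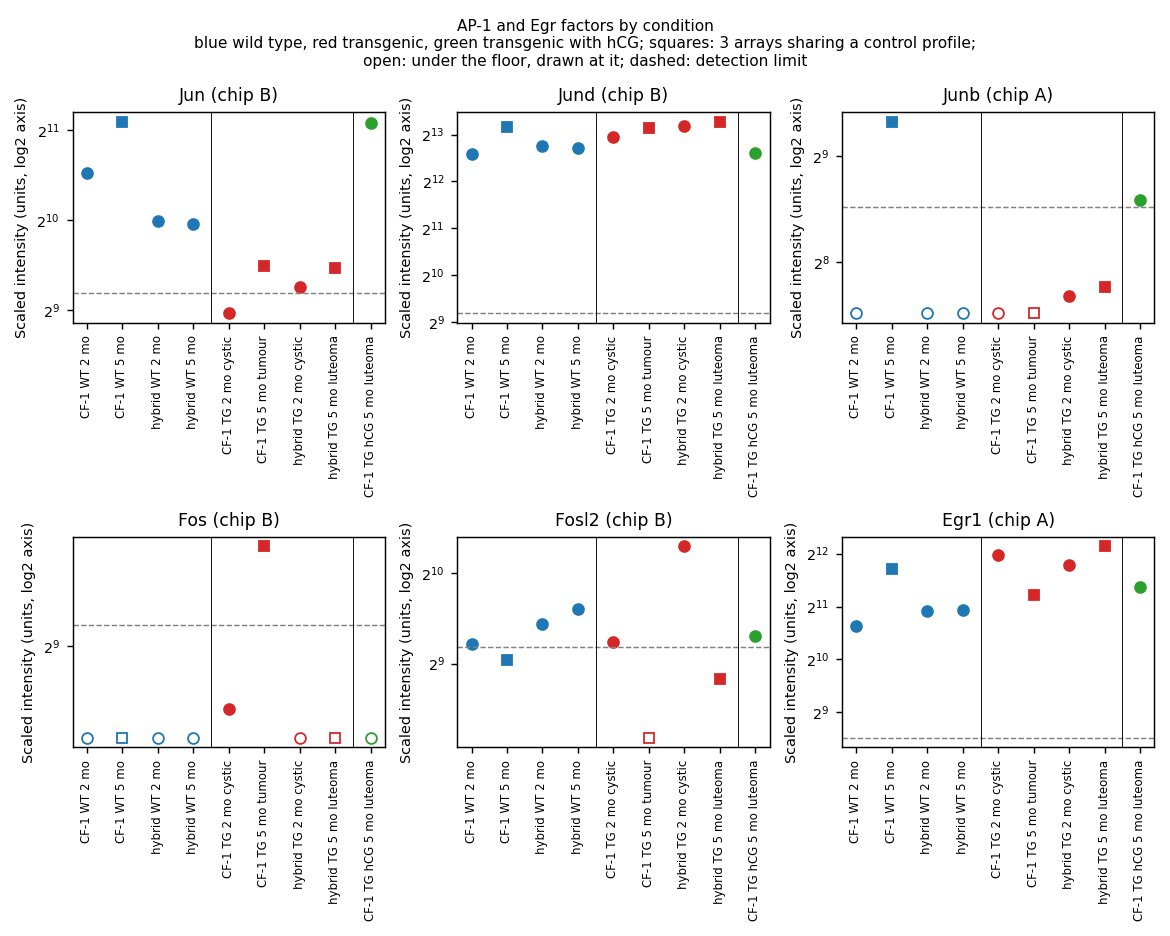
Scaled intensity (units, log2 axis) of 5 AP-1 genes and Egr1 in the 9 conditions; 1 point is 1 array, and open symbols are values under the floor drawn at it. Jun separates the 4 untreated transgenic ovaries (499 to 718 units) from the 4 wild types (995 to 2182 units), with the hCG-treated ovary at 2160 units among the wild types.

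Markers of some other cell types differed between the genotypes as well. At an unadjusted p under 0.05 (limma) 6 of 7 epithelium and oviduct markers and 4 of 6 smooth muscle markers were lower in transgenic ovaries. So were 2 of 4 tested macrophage markers, 4 of 4 tested adipocyte markers and 1 of 5 luteal and steroidogenic markers, against 5.34% of all probe sets. Of the erythroid markers 1 of 3 was higher, against 4.68%. In either direction 0 of 7 granulosa, 0 of 4 oocyte and 0 of 4 tested endothelium markers reached this threshold. The 2 lower macrophage markers were Cd74 and H2-Aa, whereas Cd68 and Lyz2 differed by 0.32 and 0.46 and were higher in 3 of 4 pairs. The summed level ran from 19103 to 29264 units in the wild types and from 1674 to 15425 in the untreated transgenic ovaries for epithelium and oviduct, and from 2383 to 8680 against 1177 to 2206 for adipocytes. It ran from 20181 to 38975 against 18336 to 33083 for smooth muscle, from 21798 to 59635 against 21341 to 39191 for macrophages and from 25691 to 29655 against 22099 to 80454 for erythroid cells. In the tumour, Ovgp1 (109 units), Krt18 (151 units), Krt19 (160 units), Adipoq (154 units), Car3 (74 units) and Fabp4 (51 units) were under the floor. With hCG the summed levels were 23287 units for epithelium and oviduct and 2557 for adipocytes. Each sum adds probe sets of unlike brightness, so bright genes weigh most. In the wild types the brightest were Ovgp1 (epithelium and oviduct), Acta2 (smooth muscle), Lyz2 (macrophages) and Hba-a1 (erythroid cells). Ovgp1 alone read 9338 to 19169 units in the wild types and 109 to 10829 in the untreated transgenic ovaries (limma unadjusted p = 0.097). The part of these cell types in the lower Hspa1a, Hspb1, Dnajb1, Dnajc15, Dnajc1 and Jun values was not tested.

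Each transgenic ovary was then set against the wild type of its strain and age, with 1 array on either side and therefore no test, and members at least 2-fold apart were counted. In CF-1 at 2 months Egr1 was 2.52-fold higher and Hspa1a and Jun were lower, 1 and 2 of 52 members against 2.95% and 2.79% of all probe sets. In the hybrid at 2 months 0 members were higher and 1 was lower, Hspa5 on chip B, against 4.35% and 4.43%. In the luteoma Egr1 was 2.31-fold higher and 5 members were lower, against 6.57% and 8.27%. The 5 were Cct3, Hspa1a (3.16-fold), Dnajc2 (2.26-fold), Hspa4l and Dnajb1 (2.13-fold each), the last and Cct3 on their dimmer probe sets. Apart from Hspa1a, these lower members of the luteoma are among those low in the 3 arrays that share the control profile.

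In the tumour, the dimmer Dnajb6 probe set was 2.19-fold higher than in CF-1 wild type at 5 months, 1 member against 5.04% of all probe sets, while the brighter one was 1.05-fold lower. Lower were 5 members, against 7.1%: Junb (at least 3.49-fold), Jun (3.04-fold), Hspb1 (2.67-fold), Dnajc15 (2.41-fold) and Dnajc1 (2.11-fold). Both arrays of this pair share the control profile. The tumour was the lowest of 9 arrays for 12 members, against 18.1% of all probe sets, and the highest for 8, against 21.0%. Lowest there were Hsp90aa1 on both chips, Hspb1, Hspd1, Hspe1, Hspa4l, Fosl2, Dnaja1, Dnajc15, Dnajc3 on chip B, the brighter Dnajb1 and the dimmer Dnajc13 probe set. Highest there were Cct2, Cct7, Hspb2, Dnaja3, Dnajb11, Dnajc10, the brighter Hspa4 and the dimmer Dnajb6 probe set. The median difference was 0.04 over the chaperones, -0.67 over the 6 Fos, Jun and Egr probe sets and 0.01 over all probe sets.

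In the hCG-treated ovary, set against the same CF-1 wild type array as the tumour, 3 members were at least 2-fold higher and 0 lower, against 7.38% and 6.98% of all probe sets. The 3 were Hspa4l (2.19-fold), Dnajc2 (2.08-fold) and Hspa1a (2.04-fold), while Jun was 1.01-fold apart. Between the hCG-treated ovary and the tumour, both CF-1 transgenic of 5 months, 9 members were at least 2-fold higher with hCG and 1 lower, against 13.2% and 11.6%. Those higher were Hspa1a (at least 3.13-fold), Dnajc15 (3.04-fold), Jun (3.01-fold), Dnajc1 (2.52-fold), Hspb1 (2.98-fold), Hspa4l (at least 2.49-fold), Fosl2 (at least 2.18-fold), Junb (at least 2.09-fold) and Hsp90aa1 on chip A (2.05-fold). The dimmer Dnajb6 probe set was 3.31-fold lower and the brighter one 1.12-fold lower. The median difference was 0.02 over the chaperones and 0.60 over the Fos, Jun and Egr probe sets, and -0.01 over all probe sets. The ratio of the 3′ to the 5′ Gapdh control was highest in the hCG-treated ovary, 1.35 on chip A and 1.3 on chip B, and its part in these values was not tested.

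**Figure D4:**
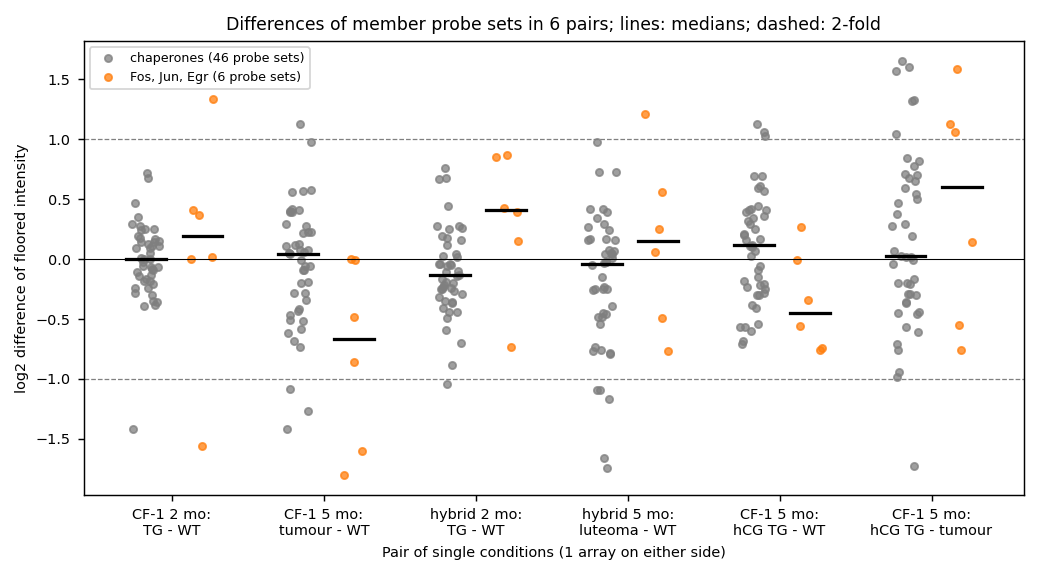
Log2 difference of floored intensity (y axis) of each of the 46 chaperone probe sets (grey) and 6 Fos, Jun and Egr probe sets (orange) in 6 pairs of single arrays; black lines are medians and dashed lines mark 2-fold. Chaperone medians lie between -0.14 and 0.12, and the medians of the 6 orange probe sets run from -0.67 in the tumour pair to 0.60 between the hCG-treated ovary and the tumour.

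With age, 12 of 52 members had an unadjusted p under 0.05 (limma), 1 higher and 11 lower at 5 months, against 19.5% of all probe sets, 9.63% higher and 9.91% lower. No member passed the adjusted threshold, against 0.0156%. The lower ones with the lowest p-values were Hsp90aa1 on chip B (-0.91 ± 0.185 SE, unadjusted p = 0.00133) and chip A (-0.98 ± 0.219, unadjusted p = 0.00258), Hspa4l (-1.08 ± 0.224, unadjusted p = 0.00167), Hsph1 (-0.90 ± 0.19, unadjusted p = 0.00183) and the dimmer Cct3 probe set (-1.24 ± 0.302, unadjusted p = 0.00406). The adjusted p was 0.133 for the first 4 and 0.142 for Cct3. The other 6 were Hspa8 on chip B (-0.54; -0.10 on chip A, unadjusted p = 0.657), Hspa5 on chip A, Dnajc2, Hspa1a, Hspb1 and Hspbp1, and Hspb2 was the higher one (0.39). The median age difference was -0.30 over the chaperones, 0.26 over the Fos, Jun and Egr factors and -0.02 over all probe sets.

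Of the 4 untreated arrays of 5 months, 3 carry the control profile, and hybrid wild type is the fourth. With a term for the profile, added after seeing the data, 1 member had an unadjusted p under 0.05 for age, against 5.12%, and 4 for genotype (Jun, Hspa1a, Hspb1 and Dnajb1), against 7.8%. Jun then differed by -1.30 (unadjusted p = 0.000782) and Hspa1a by -1.06 (unadjusted p = 0.00481). Without the hybrid wild type of 5 months, which leaves only arrays of the profile at that age, 5 members passed the adjusted threshold for age, against 3.96% of all probe sets, and 19 the unadjusted one, against 26.3%. The 5 were Cct3 and Hspa4l (adjusted p = 0.0314 each), Hsp90aa1 on chip B (0.0451) and chip A (0.0467), and Hsph1 (0.0467). For these members, age and the profile cannot be told apart in these data. The profile term had an unadjusted p (limma) of 0.00589 for Cct3 and 0.0129 for Hspa4l, and of 0.101 to 0.201 for Hsp90aa1 and Hsph1. Oocyte markers Zp1, Zp2, Zp3 and Gdf9 were also lower in the 3 profile arrays than in the other untreated ones. Zp2 read 447 (CF-1 wild type), 156 (tumour, under the floor) and 669 units (luteoma), against 1977 to 2595, and 309 with hCG. The part of oocytes in these members was not tested.

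By strain, 2 of 52 members had an unadjusted p under 0.05 (limma), both higher in the hybrid, against 7.88% of all probe sets, 4.32% higher and 3.56% lower, and 0 passed the adjusted threshold, against 0.0312%. They were Hspa1a (0.73 ± 0.216 SE, unadjusted p = 0.0106, adjusted p = 0.512) and the brighter Dnajb1 probe set (0.45, unadjusted p = 0.0245).

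Genes that work beside the members were read from 4 lists, and none of their genes passed the adjusted threshold for genotype. Of 35 heat shock regulators and co-chaperones 18 were on the chips and 16 were tested, with a median difference of 0.04. The 1 gene at an unadjusted p under 0.05 (limma) was Hmox1, the heme-degrading stress enzyme, at 2236.4 ± 696 units in wild type and 3342.4 ± 624 in transgenic ovaries (SD, n = 4 each), a difference of 0.61 (unadjusted p = 0.0141, adjusted p = 0.406). Of 21 chaperones and folding enzymes of the endoplasmic reticulum 14 were tested, with a median of -0.05. Pdia4, a disulfide isomerase, was lower by this measure, at 2213.6 ± 872 against 1284.5 ± 606 units (-0.79, unadjusted p = 0.0409, adjusted p = 0.489).

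Of 37 other immediate early genes 29 were on the chips and 23 were tested, with a median of 0.05. At an unadjusted p under 0.05 (limma) 5 were higher and 1 lower, against 4.68% and 5.34% of all probe sets. Ccn1, a matricellular protein that AP-1 and YAP induce, read 235, 199, 262 and 198 units in the wild types and 466, 525, 771 and 821 in the transgenic ovaries, with 386 units after hCG. The groups did not overlap, and the difference was 1.5 ± 0.198 (SE, limma unadjusted p = 0.000105, adjusted p = 0.0842). Its wild-type values all lay between the floor of 183.8 units and the detection limit of 367.6, so the size of the difference is imprecise. Ier2 (0.69, unadjusted p = 0.00602), Socs3, the feedback inhibitor of cytokine signalling (1.11, unadjusted p = 0.0102), and Cebpb, a factor that luteinizing hormone induces in granulosa cells (0.53, unadjusted p = 0.0126), were higher in 4 of 4 pairs. Ier3 was lower in 4 of 4 (-0.62, unadjusted p = 0.0166). The fifth higher gene was Ccn2, named outside the rule (1.13, limma unadjusted p = 0.0479). Ccn2 read 14966 units in the tumour and 1710 to 4320 in the other arrays, and was higher in 3 and lower in 1 of 4 pairs. Jun, at -1.10, lay on the other side of 0 from the 5 higher genes. Of 25 Ras, MAPK and AP-1 partner genes 12 were tested, with a median of 0.22 and with Atf5, a stress-responsive leucine zipper factor, higher (0.83, unadjusted p = 0.0374, adjusted p = 0.483).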

How the data were processed

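The files hold linear intensities for each probe set of 2 Affymetrix chip types. For these deposited intensities the software, background step and scaling used by the authors are not given in the sources read. The members and gene lists were chosen with earlier results of these data known. Genes were named from the platform annotation, with symbols updated by Entrez number, and promoters are from RefSeq (GRCm38.p6). On each chip type 76 probe sets were left out, 55 Affymetrix controls and 21 others present on both.

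Arrays of a chip type were scaled to a common trimmed mean (2nd to 98th percentile), raised to the floor and log2 transformed. For the floor, each array gave its 25th percentile or the size of its 5th, whichever was larger, and the median of these was used. Log2 differences use floored values, which understates those of dim probe sets, and folds against a floored value are given as at least that size. Tested were 4122 (chip A) and 2286 (chip B) probe sets. Genotype, strain and age were fitted additively, per chip type, to the 8 untreated arrays (limma 3.58.1 under R 4.3.3, lmFit and eBayes), with p-values adjusted over both chip types by Benjamini-Hochberg at 0.05. Interactions were fitted separately. Pairs of single arrays had no test, only a rule of 2-fold with the brighter side detected.

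Named were all Fos, Jun and Egr members and all tested heat shock members. Of the Dnaj and Cct genes, those at an unadjusted p under 0.05 for genotype, age or strain, those 2-fold apart in any pair and the 2 brightest of each family were named, and others by range, count or place in a list. Companion lists gave at most 5 genes by lowest p. The genotype fit was also run on simulated intensities (6408 probe sets). It recovered 90% of changes of 1 on the log2 scale at an unadjusted p under 0.05 and 45% after adjustment. Of changes of 2 it recovered 98% and 89%, and it called 5.33% of unchanged probe sets unadjusted. The simulated noise was independent between arrays, without strain or age effects, a shared array profile or a floor. These rates may therefore not hold for the real arrays. Alternatives were a doubled and a fixed floor, median and quantile scaling, other detection filters, other variance settings, a profile term, the 4 pairs as a block and each array left out.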

Additional observations from a re-analysis of the deposited data

Results flagged for a closer look

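In 67 groups, each the 4 wild types or the 4 untreated transgenic ovaries for 1 named probe set, 4 values stood apart from the other 3 of their group by more than Dixon's critical share of the group's range, where chance flags about 1 in 20 groups. A further 3 groups with 2 or more values under the floor were left out, since those values have no order. Dnajc15 in the tumour (2842 units) lay below the other transgenic ovaries (6107 to 6865 units), with a gap of 0.867 of the range on the log2 scale. Hybrid wild type at 5 months was low for Cct7 (5919 against 7326 to 7653 units, gap 0.83). Hybrid wild type at 2 months was high for Hspa14 (1660 against 1367 to 1410 units, gap 0.84). CF-1 wild type at 5 months was low for the dimmer Hspa4 probe set (1820 against 2344 to 2456 units, gap 0.844).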

How the results depend on the processing

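Of 593 alternatives for the 35 named probe sets, 570 kept the direction of the genotype difference and 23 turned it, 0 of them among the 7 members at an unadjusted p under 0.05 (118 alternatives). An unadjusted p of 0.05 or more came in 14 of 16 alternatives for Dnajc1, 11 of 17 for Egr1, and 5 of 17 each for Dnajc15 and the brighter Dnajb1 probe set, and in 0 of 17 for Hspa1a, Hspb1 and Jun. The cause of the turns was not tested. With the profile term, Cct7 gave -0.08, Dnajc2 0.27 and Hspbp1 -0.03, and members at an unadjusted p under 0.05 numbered 4 for genotype and 1 for age. Median scaling gave 0.06 for Dnajc2, 0.02 for Hspb8 and 0.02 for the chaperone median, 8 probe sets past the adjusted threshold for genotype, and 0 members in the tumour 2-fold beyond the other 8 arrays. Quantile normalization gave 0.06 for Dnajc2, and trend and robust variances gave 8 probe sets past the adjusted threshold. Doubling the floor gave 0.11 for Fosl2, 1 member by strain, and 3, 0 and 5 members 2-fold apart in the luteoma, hCG and hCG-against-tumour pairs, where a higher floor shrinks differences of dim probe sets. With no detection filter the hCG pair gave 5 members and the tumour was 2-fold beyond the others for 2.

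Leaving out 1 array at a time gave 4 to 7 members for genotype (4 without the hybrid cystic ovary, and 4 without hybrid wild type at 5 months), 0 to 7 of all probe sets past the adjusted threshold (7 without the tumour, 2 without CF-1 wild type at 2 months, 1 without that at 5 months), 8 to 19 members for age (8 without the luteoma, 19 without hybrid wild type at 5 months) and 1 to 5 for strain (1 without CF-1 wild type at 2 months, 4 without the luteoma, 5 without CF-1 wild type at 5 months). Differences that crossed 0 ranged from -0.06 to 0.18 for Cct2, -0.08 to 0.14 for Cct7, -0.28 to 0.27 for Dnajc2, -0.08 to 0.22 for Hspa14, -0.38 to 0.09 for Hspa5 on chip B, -0.03 to 0.24 for Hspa8 on chip B, -0.01 to 0.20 for Hspb2, -0.17 to 0.08 for Hspb8, -0.03 to 0.58 for Hspbp1, -0.08 to 0.24 for Hspe1 and -0.61 to 0.12 for Junb. Hspa1a ranged from -1.32 to -0.97 and Jun from -1.30 to -0.91 in these fits, and with the floor doubled Hspa1a gave -0.50. The labels give no replicate numbers, but the 4 pairs of the same strain and age can be a block. That fit, added after seeing the data, left 3 residual degrees of freedom and gave 6 members for genotype and 0 probe sets past the adjusted threshold. The number of arrays and the dimness of Hspa1a, Hspa4l, Dnajc1, Junb and Fos limit the precision.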
